A study of Rattus norvegicus with 9 samples.

Results

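The enzymes that make bile acids from cholesterol and join them to taurine or glycine were followed in the livers of rats with acute-on-chronic liver failure (ACLF) and of normal rats. The set was chosen by gene symbol and holds 10 genes, Cyp7a1, Cyp8b1, Cyp27a1, Cyp7b1, Akr1d1, Hsd3b7, Slc27a5, Baat, Acox2 and Amacr, of the 32883 genes listed in the deposited tables. Of these 10 genes, 10 passed the filter on low counts, as did 14089 genes in all. Cyp7a1 and Baat lie on chromosome 5, Cyp7b1 and Amacr on chromosome 2, Hsd3b7 and Slc27a5 on chromosome 1, and the others on 4 further chromosomes (Akr1d1 on 4, Cyp8b1 on 8, Cyp27a1 on 9 and Acox2 on 15).

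Bile acids are synthesized in hepatocytes by 2 routes. The classical route starts with the hydroxylation of the sterol ring by Cyp7a1, and the alternative route starts with the hydroxylation of the side chain by Cyp27a1, followed by Cyp7b1. Both routes share the later steps, in which the ring is modified, the side chain is shortened in peroxisomes, and the product is activated with coenzyme A and conjugated. Bile acids that accumulate in hepatocytes activate the receptor FXR (Nr1h4), which induces the repressor SHP (Nr0b2), and a signal from the intestine reaches the same genes through the receptor Fgfr4 and its co-receptor Klb. When the bile duct is blocked, bile acids are retained in the liver.

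Bulk RNA was sequenced from whole liver tissue of 9 rats, 3 in each group. The study used male Sprague-Dawley rats of 8 to 11 weeks. Normal livers came from rats without liver failure. ACLF was induced by ligation of the common bile duct for 21 days, which gives a secondary biliary cirrhosis, followed by lipopolysaccharide (LPS) at 0.25 mg/kg into the peritoneum. In both ACLF groups the rats were connected to an extracorporeal blood circuit for 2 h, and the livers were taken 24 h after LPS from animals that had survived to that time. The circuit of the empty group held neither cells nor an adsorption column. Livers of these groups are called empty livers and UTOpiA livers. The circuit of the UTOpiA group held a column that adsorbs granulocytes and monocytes and, in series, alginate capsules with human hepatocyte-like cells, which were derived from gene-edited induced pluripotent stem cells. Ligation, LPS and circulation were shared by the empty and UTOpiA groups, so the comparison of either with normal livers cannot tell these steps apart. The labels call the libraries biological replicates. The values describe liver RNA and not enzyme activity or bile acids.

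Between 14241172 and 17321677 reads were counted on genes in each library. The 10 enzymes together made up 0.477% to 0.651% of all counts in normal livers, 0.236% to 0.372% in empty livers and 0.391% to 0.653% in UTOpiA livers. The liver label was checked against 10 hepatocyte markers, none of which was at 0 in any group. The share of albumin (Alb) was 13.3% to 14.9% in normal livers and 1.54% to 3.91% under ACLF. Empty replicate 2 stood apart from the other livers of its group, with a correlation of log2 CPM (counts scaled to the library total) of 0.93 with each of them, whereas the other two correlated at 0.97. UTOpiA replicate 2 correlated more closely with empty replicates 1 and 3 (0.961 and 0.962) than with UTOpiA replicates 1 and 3 (0.952 and 0.941). Without UTOpiA replicate 2, 49 genes were called between UTOpiA and empty livers, of which 0 were among the 10 enzymes, and without empty replicate 2 there were 48. The counts of called enzymes, and each enzyme whose call depends on this liver, are therefore also given without it.

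Promoter sequences were available for 7 of the 10 genes, from RefSeq on the rat build GRCr8, and each was searched over the 250 bases before the annotated start. The sequences of 3 genes with calls between empty and normal livers are shown. Baat and Acox2 were called lower in empty than in normal livers, and Cyp27a1 was called lower once empty replicate 2 was left out. Slc27a5 was also called lower without that liver, and its sequence is not shown because its strand differs between GRCr8 (minus) and the annotation of the counted genes (plus). Each is written 5′ to 3′ in the direction of its gene, and capitals mark a searched motif. The sequences lie at chr5:68656138-68656387 on the minus strand for Baat, at chr15:19090705-19090954 on the plus strand for Acox2 and at chr9:83713282-83713531 on the plus strand for Cyp27a1.
Baat: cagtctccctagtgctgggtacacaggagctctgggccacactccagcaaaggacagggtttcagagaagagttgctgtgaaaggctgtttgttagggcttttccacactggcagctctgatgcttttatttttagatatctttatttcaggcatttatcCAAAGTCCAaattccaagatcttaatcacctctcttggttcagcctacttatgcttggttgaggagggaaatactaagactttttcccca
Acox2: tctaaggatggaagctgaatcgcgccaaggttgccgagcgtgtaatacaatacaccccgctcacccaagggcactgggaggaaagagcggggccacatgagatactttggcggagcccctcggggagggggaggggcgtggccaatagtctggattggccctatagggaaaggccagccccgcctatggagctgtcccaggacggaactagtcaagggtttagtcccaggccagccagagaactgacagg
Cyp27a1: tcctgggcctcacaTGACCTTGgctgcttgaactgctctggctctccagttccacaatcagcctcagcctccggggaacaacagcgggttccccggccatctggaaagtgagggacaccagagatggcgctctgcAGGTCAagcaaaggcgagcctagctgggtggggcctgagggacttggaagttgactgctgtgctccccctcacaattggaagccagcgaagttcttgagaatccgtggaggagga

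The motifs were searched on both strands. The letters CAAAGTCCA, a form of the site bound by the hepatocyte factor HNF4A, occurred in Baat, at bases 161 to 169 of the printed window, and in 0.338% of the 33469 promoters of the same length. The nuclear receptor half-site AGGTCA occurred in Cyp27a1, at bases 15 to 20 on the reverse strand and at bases 136 to 141 on the forward strand, and in Amacr, and in 14.1% of all promoters. The first of the sites in Cyp27a1 is part of the longer form CAAGGTCA, found in 1.33% of all promoters. The letters TTATGTAA, a site of the clock factor DBP, occurred in 0 of the 7 promoters and in 0.828% of all promoters. Acox2 and Slc27a5 held none of these letters in this window. Cyp7a1, Cyp7b1 and Akr1d1 had no entry.

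The levels of the 10 genes were compared with each other as TPM, transcript values that the authors scaled to gene length. In normal livers the most abundant were Akr1d1, at 1166 ± 459 TPM (SD, n = 3), and Baat, at 1133 ± 141 TPM, which overlapped. Acox2 (395 ± 66.5 TPM), Slc27a5 (385 ± 30.8 TPM), Cyp7a1 (248 ± 130 TPM), Cyp27a1 (234 ± 19.3 TPM), Amacr (219 ± 22.3 TPM) and Cyp8b1 (134 ± 95.4 TPM) followed, and each of these overlapped the next one among them. Hsd3b7 (40.9 ± 2.80 TPM) and Cyp7b1 (3.51 ± 0.586 TPM) came last, each below its neighbor in every liver. By group mean, Hsd3b7 and Cyp7b1 also came last in both ACLF groups. In empty replicate 2, however, Cyp8b1 (8.43 TPM) was below Cyp7b1 (19.6 TPM), and Acox2 (94.6 TPM) below Hsd3b7 (108 TPM). In the empty group Baat led at 437 ± 82.7 TPM and Cyp8b1 was second at 405 ± 352 TPM, and the 9 genes from Baat down to Hsd3b7 each overlapped the next. Baat led in UTOpiA livers as well, at 905 ± 307 TPM, followed by Akr1d1 at 652 ± 413 TPM.

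Values between livers are given below as CPM normalized by the TMM method of edgeR, and fold changes as log2 of the ratio of fitted group means with the standard error (SE). A gene was called when its Benjamini-Hochberg adjusted p over the 14089 genes tested was under 0.05 and its change exceeded 2-fold. In whole tissue, fewer hepatocytes and less RNA per hepatocyte cannot be told apart.

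**Figure D1:**
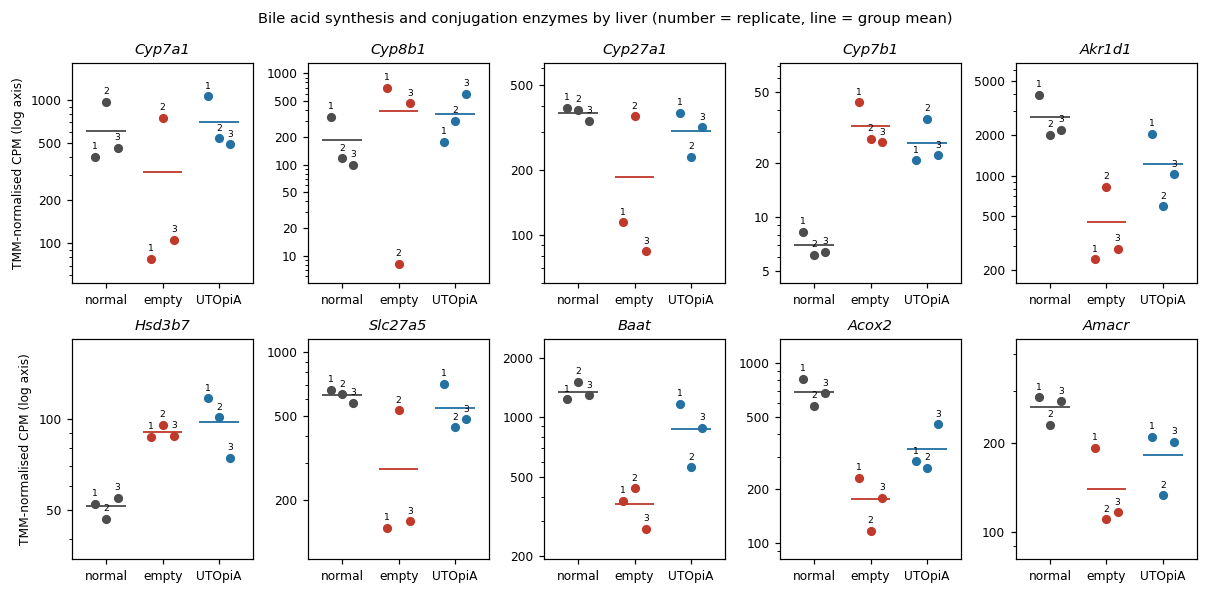
TMM-normalized CPM of the 10 enzymes in each of the 9 livers, on log axes that differ between panels. Points are livers, numbered by replicate, and lines are group means. Empty replicate 2 lies within the normal range for Cyp7a1 and Cyp27a1, near it for Slc27a5 and far below all other livers for Cyp8b1, at 8.20 CPM, while all 6 ACLF livers lie above the normal livers for Cyp7b1 and Hsd3b7.

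Cyp7a1 and Cyp8b1, the enzymes of the classical route, varied more between livers of the empty group than any other enzyme of the set. Cyp7a1, the rate-limiting hydroxylase of this route, stood at 400.1, 968 and 466 CPM in normal livers, at 78.3, 753 and 106 CPM in empty livers and at 1059, 540.3 and 491 CPM in UTOpiA livers. Empty replicates 1 and 3 were thus below every other liver, and empty replicate 2 lay within the normal range. Cyp7a1 was not called between empty and normal livers (log2 fold change -0.97, SE 0.82, adjusted p = 0.356). Without empty replicate 2 it was called lower (log2 fold change -2.74, adjusted p = 0.00243). For UTOpiA against empty livers the log2 fold change was 1.16 (SE 0.82, adjusted p = 0.665), with a 95% confidence interval of -0.71 to 3.03, and the groups overlapped.

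Cyp8b1, the hydroxylase that directs synthesis toward cholic acid, stood at 337, 117 and 100.4 CPM in normal livers. It stood at 693, 8.20 and 469 CPM in empty livers and at 177, 301 and 601 CPM in UTOpiA livers. The highest and the lowest of all 9 livers were therefore both empty livers, 84.5-fold apart, against 3.36-fold in normal livers and 3.40-fold in UTOpiA livers. The liver with the least Cyp8b1, empty replicate 2, had the second highest Cyp7a1 of the ACLF livers. None of the comparisons called Cyp8b1. The log2 fold change was 1.08 (SE 1.14, adjusted p = 0.463) between empty and normal livers and -0.12 (SE 1.13, adjusted p = 0.981) between UTOpiA and empty livers. The former was 1.65 (adjusted p = 0.0611) without empty replicate 2, 1.84 without normal replicate 1, 0.36 without empty replicate 1 and 0.37 by limma on TPM. The direction of the latter turned under several alternatives, among them leaving out empty replicate 1 (0.59).

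Of the enzymes of the alternative route, Cyp7b1 rose in both ACLF groups and Cyp27a1 was not called with all livers. Cyp7b1, the hydroxylase of oxysterols, stood at 8.31, 6.14 and 6.40 CPM in normal livers, at 44.0, 27.5 and 26.3 CPM in empty livers and at 20.8, 35.5 and 22.2 CPM in UTOpiA livers. Every ACLF liver was above every normal liver. The log2 fold change from normal was 2.23 (SE 0.28, adjusted p = 0.000338) in empty livers and 1.92 (SE 0.28, adjusted p = 0.000982) in UTOpiA livers. The ACLF groups overlapped, with a log2 fold change of -0.31 between them (95% confidence interval -0.90 to 0.27, adjusted p = 0.716).

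Cyp27a1, the mitochondrial side-chain hydroxylase, stood at 389, 383 and 339.8 CPM in normal livers, at 115, 357 and 84.1 CPM in empty livers and at 370.2, 231 and 317 CPM in UTOpiA livers. As for Cyp7a1, empty replicates 1 and 3 were below all other livers and empty replicate 2 was near the normal level. With all livers it was not called between empty and normal livers (log2 fold change -1.0, SE 0.48, adjusted p = 0.113) or between UTOpiA and empty livers (0.72, SE 0.48, adjusted p = 0.637). Without empty replicate 2 both comparisons were called, with log2 fold changes of -1.90 (adjusted p = 0.000482) and 1.62 (adjusted p = 0.0455).

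The balance of the routes was compared as the log2 ratio of TPM within each liver, with 1 added to each value. Cyp7a1 exceeded Cyp27a1 in normal replicate 2, empty replicate 2 and UTOpiA replicates 1 and 2, at 1.62, 1.35, 1.84 and 1.51 times its level, and in no other liver. Relative to Cyp27a1, Cyp7a1 had a mean log2 ratio of -0.03 ± 0.66 in normal livers, -0.35 ± 0.81 in empty livers and 0.49 ± 0.45 in UTOpiA livers (SD, n = 3). Cyp8b1 exceeded Cyp7b1 by 22.6 to 58.3 times in normal livers. It was 22.6, 0.430 and 25.7 times the level of Cyp7b1 in empty livers, so only empty replicate 2 of the 9 livers had more Cyp7b1 than Cyp8b1. In the UTOpiA group the ratio was 12.2, 12.2 and 38.9. None of the 6 comparisons of these ratios passed a two-sided exact permutation test (smallest p = 0.2, adjusted p = 0.8). With 3 livers a group this test cannot go below 0.1.

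Of the enzymes of ring modification, Akr1d1 fell in empty livers. Hsd3b7, at higher values, did not reach the 2-fold threshold by edgeR with all livers and the filter used here. Akr1d1, the reductase that saturates the ring, stood at 3926, 1989 and 2168 CPM in normal livers, at 240.2, 829 and 287 CPM in empty livers and at 2040.3, 593 and 1019 CPM in UTOpiA livers. All empty livers were below all normal livers, whereas UTOpiA replicate 1 reached the normal range. The log2 fold change from normal was -2.58 (SE 0.62, adjusted p = 0.00776) in empty livers and -1.15 (SE 0.59, adjusted p = 0.15) in UTOpiA livers. Without empty replicate 2 the change in empty livers was -3.36 (adjusted p = 0.00165). UTOpiA and empty livers differed by 1.43 (SE 0.59, adjusted p = 0.455), with overlapping livers.

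Hsd3b7, the oxidoreductase that acts on the hydroxylated sterols of both routes, was higher in every ACLF liver than in every normal liver. It stood at 52.3, 46.6 and 54.9 CPM in normal livers, at 87.1, 95.6 and 88.2 CPM in empty livers and at 117, 101 and 74.2 CPM in UTOpiA livers. The change from normal passed the p threshold but not the 2-fold threshold in empty livers (log2 fold change 0.82, SE 0.18, adjusted p = 0.00427) and in UTOpiA livers (0.93, SE 0.18, adjusted p = 0.00319). Between UTOpiA and normal livers edgeR called Hsd3b7 when at least 10 counts were required in each library (1.02, adjusted p = 0.00243). It was also called there without UTOpiA replicate 3 (1.09, adjusted p = 0.001). On the TPM scale Hsd3b7 exceeded 2-fold in both comparisons. The TPM scale placed the median change of all genes at 0.44 between empty and normal livers and at 0.28 between UTOpiA and normal livers, against 0.05 in both for TMM.

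Of the enzymes of side-chain shortening, Acox2 fell in empty livers and Amacr was not called. Acox2, the peroxisomal oxidase of this step, stood at 816, 576 and 675 CPM in normal livers, at 229, 117 and 179 CPM in empty livers and at 283, 261 and 455 CPM in UTOpiA livers. The 3 groups did not overlap for Acox2, with the empty group lowest and the normal livers highest. The log2 fold change from normal was -1.98 (SE 0.32, adjusted p = 0.00107) in empty livers and -1.05 (SE 0.31, adjusted p = 0.0243) in UTOpiA livers. The latter call was lost without normal replicate 1 (-0.91, adjusted p = 0.083), normal replicate 3 (-1.07, adjusted p = 0.0588), UTOpiA replicate 1 (-0.95, adjusted p = 0.0806) or UTOpiA replicate 2 (-0.90, adjusted p = 0.0763). It was also lost with at least 10 counts required in each library (-0.97) and by limma on TPM (-0.76 in each of 3 forms). Acox2 differed between UTOpiA and empty livers by a log2 fold change of 0.93 (SE 0.31, adjusted p = 0.395).

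Amacr, the racemase that prepares the side chain for oxidation, stood at 286, 231 and 278 CPM in normal livers, at 194, 111 and 117 CPM in empty livers and at 211, 133 and 203 CPM in UTOpiA livers. All ACLF livers were below all normal livers. The difference between empty and normal livers passed the p threshold without reaching 2-fold (log2 fold change -0.92, SE 0.27, adjusted p = 0.0178), and it was called without normal replicate 2 (-1.01) or without empty replicate 1 (-1.22). It missed the p threshold without normal replicate 1 (adjusted p = 0.0566), normal replicate 3 (adjusted p = 0.053) or empty replicate 3 (adjusted p = 0.0658), and by limma on TPM (-0.44, adjusted p = 0.122). In the UTOpiA group the log2 fold change from normal was -0.54 (SE 0.26, adjusted p = 0.132).

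The conjugating enzyme Baat, which joins the activated bile acid to its amino acid, fell in empty livers. It stood at 1230.5, 1514 and 1291 CPM in normal livers, at 381, 439 and 274 CPM in empty livers and at 1171, 561 and 883 CPM in UTOpiA livers. As for Acox2, the groups did not overlap, with the UTOpiA group between the others. The log2 fold change from normal was -1.88 (SE 0.31, adjusted p = 0.00127) in empty livers and -0.63 (SE 0.31, adjusted p = 0.131) in UTOpiA livers. Baat was higher in UTOpiA than in empty livers by a log2 fold change of 1.26 (SE 0.31, 95% confidence interval 0.57 to 1.95). This difference was not called by edgeR (adjusted p = 0.283) and was called by DESeq2 (1.23, adjusted p = 0.00428).

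Slc27a5, the ligase that activates bile acids with coenzyme A, stood at 663, 631 and 573 CPM in normal livers, at 148, 531 and 159 CPM in empty livers and at 708, 441 and 480.1 CPM in UTOpiA livers. Empty replicates 1 and 3 were again far below every other liver, and empty replicate 2 was within the range of the UTOpiA group. With all livers the log2 fold change was -1.16 (SE 0.47, adjusted p = 0.0661) between empty and normal livers and 0.96 (SE 0.47, adjusted p = 0.516) between UTOpiA and empty livers. Without empty replicate 2 these were -2.03 (adjusted p = 0.000391) and 1.83 (adjusted p = 0.0455), and both were called. DESeq2 called the first with all livers (-1.15, adjusted p = 0.0269).

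**Figure D2:**
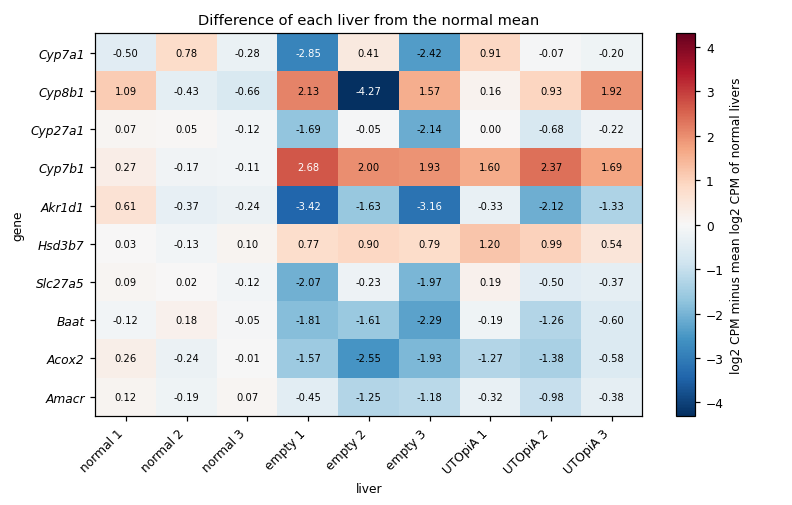
Difference of log2 CPM from the mean of the normal livers, for each enzyme (rows) and liver (columns), with red above and blue below the normal mean. Cyp7b1 and Hsd3b7 are red in all ACLF livers, Akr1d1, Baat, Acox2 and Amacr are blue in all of them, and empty replicate 2 departs from the other empty livers for Cyp7a1 (0.41), Cyp8b1 (-4.27), Cyp27a1 (-0.05) and Slc27a5 (-0.23).

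Over the set, empty livers differed from normal livers by 1 enzyme called higher, Cyp7b1, and 3 called lower, Akr1d1, Baat and Acox2. Of all genes tested, 20.7% were called higher and 11.1% lower. The median log2 fold change was -0.98 over the 10 enzymes and 0.05 over all genes. Livers did not overlap between these groups for 2 enzymes that were higher and 5 that were lower, where 32.4% and 28.8% of all genes did so in each direction. In TPM, 2 were higher and 3 lower without overlap (Akr1d1, Baat and Acox2), against 53.4% and 12.8% of all genes, and Slc27a5 and Amacr overlapped. Without empty replicate 2, 6 of the 10 enzymes were called lower and 1 higher, against 12.3% and 20.4% of the 14398 genes then tested, and the median of the enzymes was -1.83.

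Between UTOpiA and empty livers, edgeR called 0 of the 10 enzymes, and 0 (0%) of all genes. At an unadjusted p under 0.05 there were 1456 genes, with Akr1d1, Baat and Acox2 among them. DESeq2 called 1 enzyme, Baat, higher and 0 lower, against 0.352% and 0.511% of the genes to which it gave an adjusted p. DESeq2 gave Cyp7a1 no adjusted p in any comparison. Fitted values were higher in UTOpiA livers for 8 of the 10 enzymes, all but Cyp8b1 and Cyp7b1, with a median log2 fold change of 0.83 over the enzymes and 0.00 over all genes. Livers did not overlap for Baat and Acox2, both higher, as for 6.15% of all genes that were higher and 5.97% that were lower. The same 2 enzymes did not overlap in TPM, against 2.43% of all genes higher and 8.62% lower. Without empty replicate 2, Cyp27a1 and Slc27a5 were called higher and 0 enzymes lower, against 0.181% and 0.153% of all genes.

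Between UTOpiA and normal livers, 1 enzyme was called higher, Cyp7b1, and 1 lower, Acox2, where 18.2% and 6.81% of all genes were called. The median log2 fold change was -0.24 over the enzymes and 0.05 over all genes. Livers did not overlap for 2 enzymes that were higher, Cyp7b1 and Hsd3b7, and 3 that were lower, Baat, Acox2 and Amacr, against 30.8% and 26.1% of all genes. In TPM the same 2 were higher and only Acox2 was lower without overlap, against 39% and 13.4% of all genes. These 3 comparisons share groups of livers and are given side by side.

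**Figure D3:**
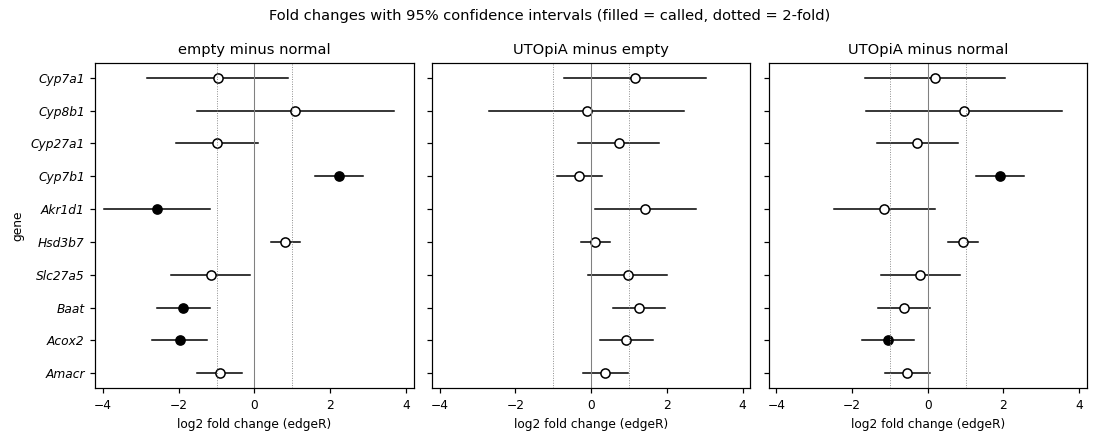
Log2 fold changes of the 10 enzymes with 95% confidence intervals, in the 3 comparisons. Filled points are called and dotted lines mark 2-fold. Cyp7b1 is called in both comparisons with normal livers, Acox2 in both, and Akr1d1 and Baat between empty and normal livers, while the middle panel holds no filled point. The intervals of Cyp7a1 and Cyp8b1 are the widest of the set.

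The summed level of the 10 hepatocyte markers was 257878 to 290265 CPM in normal livers, 67258.5 to 105130.0 CPM in empty livers and 78138 to 145767 CPM in UTOpiA livers. Alb alone was at 164649 to 185885, 11998.9 to 34346.4 and 12552 to 38525.6 CPM in these groups. Of the 10 markers, 4 were called lower and 1, the acute-phase gene Fgb, higher in empty than in normal livers, with a median log2 fold change of -1.01, where that of the enzymes was -0.98. The other 5 were not called, at -1.02 for Ambp, -1.0 for Tf, -0.93 for Apoh, -0.36 for Apob and 0.07 for Serpina1. Between UTOpiA and normal livers, 3 were called lower and 1 higher, with a median of -0.50, and between UTOpiA and empty livers the median was 0.54 with 0 called.

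Summed markers of cholangiocytes, neutrophils, macrophages, stellate cells and fibroblasts were higher in every ACLF liver than in every normal liver. The 7 cholangiocyte markers summed to 38.8 to 50.2 CPM in normal livers, 328 to 559 CPM in empty livers and 197 to 409 CPM in UTOpiA livers, and 6 of 7 were called higher in each ACLF group than in normal livers. The 6 neutrophil markers summed to 1.05 to 2.71, 53.0 to 267 and 64.5 to 122 CPM in these groups, with Cxcr2 at 0 in all normal livers. Mpo was at 0 in all normal livers as well, but at no more than 3 counts in any ACLF liver, and was not tested. The 7 markers of stellate cells and fibroblasts summed to 359 to 379, 1115 to 1942 and 1337 to 1531 CPM. The 6 macrophage markers summed to 287 to 349.6, 426 to 856 and 395 to 622 CPM. Of the stellate and fibroblast markers, 6 were called higher in empty and 6 in UTOpiA than in normal livers, and of the macrophage markers 5 and 4. Lrat of the former list was lower without a call (log2 fold changes of -1.13 and -0.53), as was Clec4f of the latter (-0.85 and -0.74). The 4 endothelial markers found summed to 243 to 255, 110.3 to 230.2 and 120.1 to 185 CPM, and they differed in direction. Kdr was called lower in empty and in UTOpiA than in normal livers (log2 fold changes of -1.54 and -1.50), whereas Cdh5 was called higher in empty livers (1.03, adjusted p = 0.000579) and passed the p threshold without reaching 2-fold in UTOpiA livers (0.88, adjusted p = 0.0018). T cell markers summed to at most 4.55 CPM and B cell markers to at most 1.92 CPM in any liver, with Cd3d at 0 in all normal livers. The part of these changes in the enzyme values was not tested.

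Each enzyme was also set against the mean log2(TPM + 1) of the 10 hepatocyte markers in the same liver. On this scale the differences between empty and normal livers were 3.05 for Cyp7b1 and 1.95 for Hsd3b7, and -1.58 for Akr1d1, -0.75 for Baat and -0.86 for Acox2, with no overlap between livers. These 5 enzymes reached p = 0.1 by a two-sided exact permutation test, the smallest that 3 livers against 3 allow. Adjusted over the 10 enzymes, p was 0.2 for each of them. The marker mean was itself lower in empty livers (a difference of -0.64). The median difference of all genes tested was 1.07, with 78.2% higher and 4.12% lower without overlap. Amacr, lower than normal by CPM, was at a difference of 0.20 and overlapped. Between UTOpiA and empty livers only Baat was separate, with a difference of 0.75 (exact permutation p = 0.1, adjusted p = 0.5), and Acox2 overlapped on this scale. The median of all genes was -0.43 here, with 0.582% higher and 15.3% lower without overlap. Between UTOpiA and normal livers Cyp7b1 (2.29), Hsd3b7 (1.57) and Acox2 (-0.39) were separate (exact permutation p = 0.1 and adjusted p = 0.333 for each). Of all genes, 59.6% were higher and 5.4% lower without overlap, with a median of 0.65. The difference of Baat was 0.00 with overlapping livers.

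Across the 6 ACLF livers, the enzymes were compared with the same hepatocyte mean. Baat had a Pearson r of 0.89 (exact permutation p = 0.0111, adjusted p = 0.111 over 10 enzymes) and a Spearman rho of 0.94 (exact permutation p = 0.0167, adjusted p = 0.167). Without empty replicate 3 and UTOpiA replicate 1, the livers farthest from the median of the hepatocyte mean, the r of Baat was 0.74. Akr1d1 had an r of 0.87 and a rho of 0.89, and Cyp27a1 an r of 0.85 and a rho of 0.71 (exact permutation p = 0.0306 and 0.0333, and 0.0417 and 0.136). None of the 10 passed after adjustment. These correlations hold both the difference between the ACLF groups and the spread within them. With each liver's values centred on the mean of its group, r was 0.745 for Baat, 0.76 for Akr1d1 and 0.80 for Cyp27a1, and for Acox2 it moved from 0.30 to -0.61.

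The enzymes were also compared pair by pair across the ACLF livers, after the values were seen. In TPM, Cyp7a1 and Slc27a5 placed the 6 livers in the same order, from empty replicate 1 (42.7 and 123 TPM) and empty replicate 3 (66.1 and 151 TPM) to UTOpiA replicate 1 (547 and 559 TPM). Empty replicate 2, at 429.9 TPM of Cyp7a1 and 464 TPM of Slc27a5, came second. Over all 45 pairs of enzymes, Cyp7a1 with Slc27a5 had the highest r, 0.999, with a rho of 1.00 (exact permutation p = 0.00278 for each, the smallest that 6 livers gave, adjusted p = 0.0937 and 0.125). Without the 2 livers farthest from the median of Cyp7a1, r was 0.997. Cyp7a1 with Cyp8b1 had a rho of -0.94 (exact permutation p = 0.0167, adjusted p = 0.125) and an r of -0.63 (exact permutation p = 0.0528, adjusted p = 0.262), and r without the farthest livers was -0.52. Centred on the group means, r was 0.999 for Cyp7a1 with Slc27a5 and -0.97 for Cyp7a1 with Cyp8b1. None of the 45 pairs passed after adjustment. A single pair at the smallest p that 6 livers allow is adjusted to 0.125 over 45 pairs, so it could not pass alone. The values of a pair come from the same libraries and share their scaling.

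**Figure D4:**
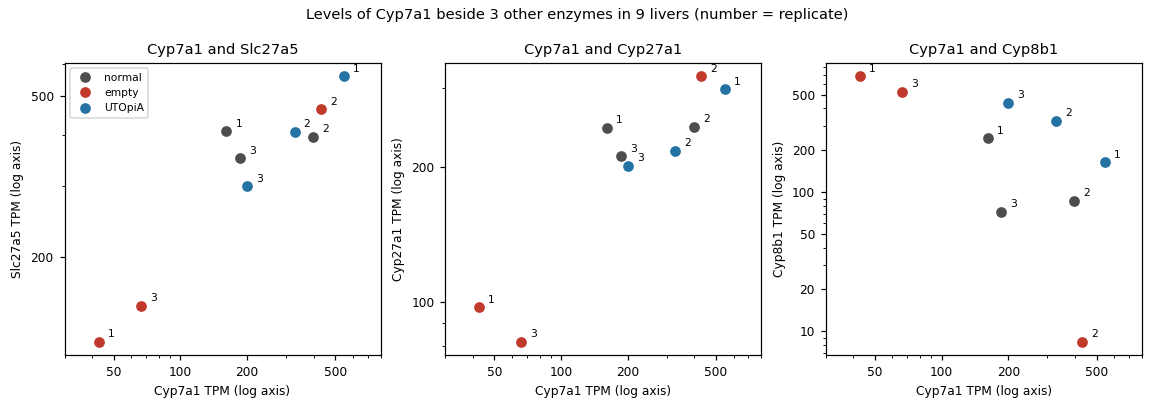
TPM of Cyp7a1 against Slc27a5, Cyp27a1 and Cyp8b1 in the 9 livers, on log axes, with livers numbered by replicate and colored by group. Empty replicates 1 and 3 lie at the low end of Cyp7a1, Slc27a5 and Cyp27a1 and at the high end of Cyp8b1, and empty replicate 2 lies at 429.9 TPM of Cyp7a1 and 8.43 TPM of Cyp8b1.

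Of 12 other genes of bile acid metabolism, 11 were in the tables and were tested. In the empty group 1 was called higher and 6 lower than in normal livers, against 20.7% and 11.1% of all genes. The median log2 fold change of the 11 was -1.27. Cyp39a1, which hydroxylates an oxysterol, was at 257 to 268 CPM in normal livers and at 34.4 to 74.5 CPM in empty livers (log2 fold change -2.26, adjusted p = 0.00135). Akr1c14, a hydroxysteroid dehydrogenase of the ring, was at 1504 to 1715 and 314 to 597 CPM (-1.85, adjusted p = 0.00139), and Scp2, the peroxisomal thiolase, at 1491 to 1543 and 470.5 to 634 CPM (-1.49, adjusted p = 0.00273). Ch25h, which makes an oxysterol and is induced in macrophages by LPS, was at 1 count or less in each normal library, and at 7.16, 29.2 and 6.97 CPM in empty livers. Against a floor of 3 counts per normal library it was at least 57.7-fold higher, and at least 28.2-fold without empty replicate 2. These bounds were not tested. The edgeR test of any change from normal gave Ch25h an adjusted p of 0.00095.

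In the UTOpiA group, 1 of these 11 genes was called higher and 3 lower than in normal livers, against 18.2% and 6.81% of all genes. Cyp39a1 was at 40.8 to 108 CPM (log2 fold change -1.73, adjusted p = 0.00619). Abcd3, a peroxisomal transporter, was at 102 to 148 CPM against 359 to 403 CPM in normal livers (-1.53, adjusted p = 0.00371), and Acaa1a, a peroxisomal thiolase, at 111 to 198 CPM against 318 to 357 CPM (-1.26, adjusted p = 0.00468). Ch25h, at 1.5 to 7.17 CPM, was at least 14.7-fold higher, and at least 7.65-fold without UTOpiA replicate 2. The edgeR test of any change from normal gave it an adjusted p of 0.0057. Between UTOpiA and empty livers, 0 of the 11 were called by edgeR and 0 by DESeq2, with a smallest edgeR adjusted p of 0.392.

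Of 16 regulators of these genes, 1 was called higher and 5 lower in empty than in normal livers, against 20.7% and 11.1% of all genes. Nr1h4, the bile acid receptor FXR, was at 86.2 to 95.1 CPM in normal livers and at 23.4 to 38.3 CPM in empty livers (log2 fold change -1.55, adjusted p = 0.00149). Foxa2, a hepatic pioneer factor, was at 30.01 to 70.5 and 11.1 to 21.1 CPM (-1.59, adjusted p = 0.00513), and Rxra, the partner of FXR, at 211 to 234 and 59.6 to 109 CPM (-1.49, adjusted p = 0.00208). Hnf4a and Klb were also lower, with log2 fold changes of -1.22 (adjusted p = 0.00511) and -1.38 (adjusted p = 0.0261). Vdr, the vitamin D receptor, was higher, at 1.66 to 1.97 against 0.262 to 0.738 CPM (1.85, adjusted p = 0.00947).

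In the UTOpiA group Nr1h4, at 27.0 to 55.4 CPM, was called lower than in normal livers (-1.03, adjusted p = 0.0132) and Vdr higher (1.41, adjusted p = 0.0395). Hnf4a was at 338, 233 and 451 CPM in UTOpiA livers, against 303, 196 and 234 CPM in empty livers and 549 to 582 CPM in normal livers. Its log2 fold change between UTOpiA and empty livers was 0.48 (SE 0.27, 95% confidence interval -0.12 to 1.08, adjusted p = 0.573). Fgfr4 was at 29.8 to 30.5 CPM in normal livers, 29.0 to 34.1 CPM in empty livers and 24.7 to 43.6 CPM in UTOpiA livers, and was not called in any comparison. Klb was at 13.1 to 16.7, 2.20 to 9.13 and 5.46 to 9.70 CPM in these groups. None (0 of 16) was called between UTOpiA and empty livers.

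Nr0b2, which encodes the repressor SHP, was at 20.04, 20.9 and 35.8 CPM in normal livers, at 3.06, 26.3 and 2.93 CPM in empty livers and at 66.3, 5.0 and 5.27 CPM in UTOpiA livers. The ACLF livers with the most Nr0b2, UTOpiA replicate 1 and empty replicate 2, were also the ACLF livers with the most Cyp7a1. No comparison called Nr0b2, and its log2 fold change between empty and normal livers was -1.25 (SE 1.15, adjusted p = 0.394).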

How the data were processed

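Raw read counts and TPM for 32883 rat genes were deposited by the authors. Per the labels and the paper, reads were trimmed, aligned with HISAT2 and counted with featureCounts, as whole counts. TPM were scaled by the authors by gene length and library total. The sources name different library kits, trimmers and builds (the submitters' processing notes name rn6, the paper a mouse build), and the strand setting is not given in the sources used here. Columns were matched to groups by library name.

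Counts were filtered with filterByExpr, normalized by TMM and fitted over all 9 libraries with the robust quasi-likelihood test of edgeR 4.0.16 in R 4.3.3. Adjusted p-values use Benjamini-Hochberg over 14089 genes. Alternatives used DESeq2 1.42.0 and limma 3.58.1 on log2(TPM + 1) or log2(TPM + 0.1), among others. Fits were tested on simulated data. Single values were compared by two-sided exact permutation tests (Python, scipy). P-values set differences between groups against the variation between these livers, and correlations against re-pairings of them. The floor of 3 counts used for Ch25h covers counting error only. Klb was found by its NCBI gene ID through RefSeq. Cyp2c70 and Pecam1 were not analysed here. Named regulators and pathway genes are the 3 called with the largest change per direction and comparison, plus Nr1h4, Nr0b2, Fgfr4, Klb and Hnf4a. The genes most like each enzyme were ranked by Pearson r of log2 CPM. The enzymes and lists were chosen with earlier results of these data known.

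The labels give no dates or batches. Same-numbered libraries deviated from their group means with correlations of -0.183 to 0.064, so the replicate number was not taken as a pairing. One motif and some details of the cell line are not reported here.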

Additional observations from a re-analysis of the deposited data

How the results depend on the processing

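Between empty and normal livers, the 4 calls among the enzymes stood under every alternative run. Called enzymes numbered 4 to 7 with each library left out (6 lower and 7 in all without empty replicate 2), their median log2 fold change ranged from -1.83 to -0.73, and all calls from 3957 to 4706. Enzymes called higher numbered 2, with Hsd3b7, by limma on TPM (pseudocounts 1 and 0.1, and no filter) and without the fold threshold. Of all genes, limma called 3202 and 3666 of 13316 higher with these pseudocounts, and 3245 of 20264 with no filter. Without the fold threshold 3788 of 14089 genes were called higher. All calls numbered 2823 with at least 10 counts in each library and 6824 without the fold threshold. Of all calls 65.1% were higher by edgeR and 82.3% by limma on TPM. Between UTOpiA and empty livers, DESeq2 called 1 enzyme (higher) of 125 genes and limma without a filter 1 gene. With each library left out 0 to 2 enzymes (0 to 2 higher) and 0 to 49 genes were called. The log2 fold change of Cyp8b1 turned positive by limma (0.939, 0.984 and 0.939), under the replicate block (0.57) and without single livers (-0.71 to 0.59). That of Hsd3b7 turned by limma (-0.115, -0.116 and -0.115) and ranged from -0.052 to 0.277 without single livers. Between UTOpiA and normal livers, 1 to 3 enzymes were called without single libraries (1 to 2 higher, 0 to 1 lower) and 2816 to 3769 genes. With at least 10 counts in each library, 2 were called higher and 0 lower, against 1384 and 701 of 11342 genes (2085 in all). By limma 2 were called higher and 0 lower in each of the 3 forms. Of 13316 genes, limma called 2167 higher and 483 lower with pseudocount 1, and 2677 and 524 with 0.1. With no filter it called 2003 and 473 of 20264. Without the fold threshold 2 enzymes were called higher, against 3286 of 14089 genes (5571 in both directions). The log2 fold changes of Cyp27a1 (0.013 in each form) and Slc27a5 (0.088, 0.089 and 0.088) turned positive by limma, and that of Cyp7a1 ranged from -0.25 to 0.68 without single livers. The replicate block changed no call among the enzymes.

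Without single livers, the difference in the log2 ratio of Cyp7a1 to Cyp27a1 between empty and normal livers ranged from -0.71 to 0.094, and that of Cyp8b1 to Cyp7b1 between UTOpiA and empty livers from -0.46 to 2.42. Relative to the hepatocyte markers, the differences between empty and normal livers then ranged from -1.36 to 0.19 for Cyp7a1, -0.1 to 3.095 for Cyp8b1, -0.65 to 0.15 for Cyp27a1, -0.757 to 0.087 for Slc27a5 and -0.026 to 0.449 for Amacr. Those between UTOpiA and empty livers ranged from -1.419 to 1.775 for Cyp8b1 and -0.33 to 0.15 for Amacr, and that of Baat between UTOpiA and normal livers from -0.22 to 0.14. With Alb left out of the markers, Amacr turned to -0.032 and, between UTOpiA and normal livers, -0.11, and 1 enzyme, Baat, passed across the ACLF livers (r = 0.93, adjusted p = 0.0278 from an exact permutation test). The r of Amacr was -0.56 without the 2 farthest livers. With values centred on the group means, the r of Acox2 (-0.609) and Amacr (-0.055) turned negative. The causes of these changes were not tested. With 3 livers a group, the wide intervals of Cyp7a1 and Cyp8b1 limit what could be detected. The bounds for Ch25h with 1 liver left out, the overlap of livers in TPM, the centring on group means, and the r of Cyp7a1 with Cyp8b1 in log2 CPM (-0.55) or without the farthest livers were chosen after seeing the data.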

Other observations

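Among 12919 genes outside the lists with a mean of at least 1 CPM, those whose log2 CPM followed each enzyme most closely over the 9 livers were ranked by Pearson r, as a description. The 9 livers hold 3 groups, and the part of group differences in these r values was not tested. Cyp7b1 was followed by Slc8a1 and C1qb (r = 0.992 for each), the latter a complement gene of macrophages, and Hsd3b7 by Qsox1 (0.986). Baat was followed by LOC317456 (0.991), Rdx (0.987) and Ftcd (0.983), an enzyme of histidine breakdown in hepatocytes. Akr1d1 was followed by Gprc5c (0.987), Acox2 by Kank2 (0.981) and Amacr by Ndufc2 (0.982), a subunit of mitochondrial complex I. Cyp27a1 was followed by Colec10 (0.991), Slc27a5 by Slc17a4 (0.969), Cyp7a1 by Mmp16 (0.979) and Cyp8b1 by Ankrd16 (0.978).

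Sult2a1, a sulfotransferase that acts on bile acids, and the clock factor Dbp were singled out after their values were seen. Sult2a1 stood at 830.2, 930.4 and 1195 CPM in normal livers, at 66.9, 501 and 75.8 CPM in empty livers and at 845, 245 and 1197 CPM in UTOpiA livers. Empty replicate 2 was above the other empty livers, as for Cyp7a1 and Slc27a5, and the log2 fold change between empty and normal livers was -2.20 (SE 0.84, adjusted p = 0.0571), called by DESeq2 (-2.19, adjusted p = 0.0333). Dbp was highest among ACLF livers in UTOpiA replicate 1 (140.1 CPM) and empty replicate 2 (86.9 CPM). The times of day at which the livers were taken are not given in the sources used here.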
